A study of Mus musculus with 18 samples.

Results

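A set of 10 germline genes known for being held silent by promoter methylation in somatic cells, namely Dazl, Ddx4, Mael, Stk31, Sycp3, Syce1, Hormad1, Taf7l, Slc25a31 and Tex101, was followed through the exit of mouse embryonic stem cells (ESCs) from naive pluripotency. They were matched by name from a list that was drawn up with earlier results of these data known, and all 10 were found among the 53801 genes counted and among the 18469 genes with enough reads to be tested. RNA was sequenced from 18 libraries in 6 groups of 3. WT cells were the parental mouse ES line, E14 in the labels and E14TG2a in the study's methods. iEZR_CA cells carry an ezrin with a phosphomimetic change, which doxycycline induces together with mCherry. Ezrin ties the plasma membrane to the actin cortex. ESC libraries came from cells in 2i+LIF, the inhibitor medium of naive pluripotency, at 0 h, and T24 and T48 libraries from cells that had spent 24 h or 48 h in N2B27 without those factors, all on gelatin. Doxycycline was given to iEZR_CA cells from about 16 h before exit and is not stated for WT cells. The drug, the transgene and any other difference between the lines therefore cannot be told apart. Whether the iEZR_CA line is 1 clone is not given in the sources used here.

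In somatic cells and in the embryo after implantation, the CpG-rich promoters of such genes carry dense DNA methylation, put in place largely by the de novo methyltransferases DNMT3A and DNMT3B. Before that methylation is laid down, a Polycomb complex (PRC1.6) with MGA, MAX, PCGF6, L3MBTL2 and E2F6, which reads E-box and E2F motifs, and the H3K9 methyltransferases also hold them down. Primordial germ cells erase the methylation and switch the genes on, and naive ESCs in 2i+LIF are low in methylation as well. Methylation itself was not measured in these libraries, so the name of the list describes what is known of the genes and not a readout.

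The promoters were read first, since they carry the CpG sites that the name of the list refers to. RefSeq windows of 300 bases on GRCm38.p6, from 250 bases before the start site to 50 bases after it, were available for all 10 genes. They held a median of 23 CpG (14 to 38), against a median of 7 over the 27025 RefSeq promoters of 1 window each, and a median ratio of observed to expected CpG of 0.788 against 0.38. Ddx4 had the most CpG (38) and Syce1 the fewest (14). The window given for Tex101 lies within the gene body of the GENCODE M21 model, downstream of that model's start. Of the windows, 3 are printed in full, 5′ to 3′, with each CpG in capitals: that of Dazl (chr17:50293571-50293870, minus strand), the member with the most reads in ESCs, that of Mael (chr1:166238695-166238994, minus strand), the member with the largest rise, and that of Syce1 (chr7:140787805-140788104, minus strand), which had the smallest adjusted p between the lines in ESCs.
Dazl: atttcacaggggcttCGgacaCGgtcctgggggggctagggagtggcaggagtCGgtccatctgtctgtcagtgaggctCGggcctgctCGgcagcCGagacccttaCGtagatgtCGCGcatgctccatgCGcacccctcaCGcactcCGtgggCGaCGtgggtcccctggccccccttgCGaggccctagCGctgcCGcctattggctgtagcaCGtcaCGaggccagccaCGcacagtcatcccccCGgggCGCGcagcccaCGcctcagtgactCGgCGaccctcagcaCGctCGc
Mael: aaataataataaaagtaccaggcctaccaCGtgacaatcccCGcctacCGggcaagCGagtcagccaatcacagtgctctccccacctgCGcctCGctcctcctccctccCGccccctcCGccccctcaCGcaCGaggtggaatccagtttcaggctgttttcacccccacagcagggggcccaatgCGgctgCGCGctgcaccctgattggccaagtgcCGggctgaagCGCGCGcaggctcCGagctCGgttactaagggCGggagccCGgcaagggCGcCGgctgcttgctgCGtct
Syce1: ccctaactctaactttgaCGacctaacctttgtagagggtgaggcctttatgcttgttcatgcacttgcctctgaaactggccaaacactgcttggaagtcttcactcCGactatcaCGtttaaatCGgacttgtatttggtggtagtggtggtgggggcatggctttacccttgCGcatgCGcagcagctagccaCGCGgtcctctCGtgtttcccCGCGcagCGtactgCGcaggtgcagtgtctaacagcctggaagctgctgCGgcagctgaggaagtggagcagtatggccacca
The Dazl window held 28 CpG, the Mael window 24 and the Syce1 window 14.

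The E-box CACGTG, the letters that MAX dimers bind, was found in 7 of the 10 windows (70.0%). It was found in 7.093% of all RefSeq promoters and in 11.335% of the 9810 promoters with at least 14 CpG. The motif reads the same on both strands, holds a CpG itself and overlapped no E2F core. It lay 29 bases upstream of the start site in Ddx4, 49 in Taf7l, 55 in Stk31, 93 in Slc25a31 and 223 in Mael. Sycp3 had one 64 and one 43 bases upstream, and Hormad1 one 57 and one 20 bases upstream. The stretches of 24 bases around these matches in the 7 windows are printed with the E-box in capitals.
Ddx4: gtccgcccgCACGTGcagccgttt
Mael: caggcctacCACGTGacaatcccc
Sycp3 (upstream): gttggctccCACGTGagaacgggc
Sycp3 (downstream): ggcatggagCACGTGctaggaggc
Taf7l: ctcttatacCACGTGacagaactc
Hormad1 (upstream): agggtgcgcCACGTGccagtgaca
Hormad1 (downstream): cgcactgcgCACGTGctgaccgga
Slc25a31: aactggaaaCACGTGttatggtca
Stk31: ccggccaccCACGTGaccagggct
The E2F core GCGGGA, searched on both strands, was found in 5 of the 10 windows, namely those of Ddx4, Mael, Sycp3, Hormad1 and Slc25a31, against 19.811% of all promoters and 44.312% of those with at least 14 CpG. The windows of Dazl, Syce1 and Tex101 held neither run of letters. These matches are a description of the sequence, and binding was not measured.

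**Figure D1:**
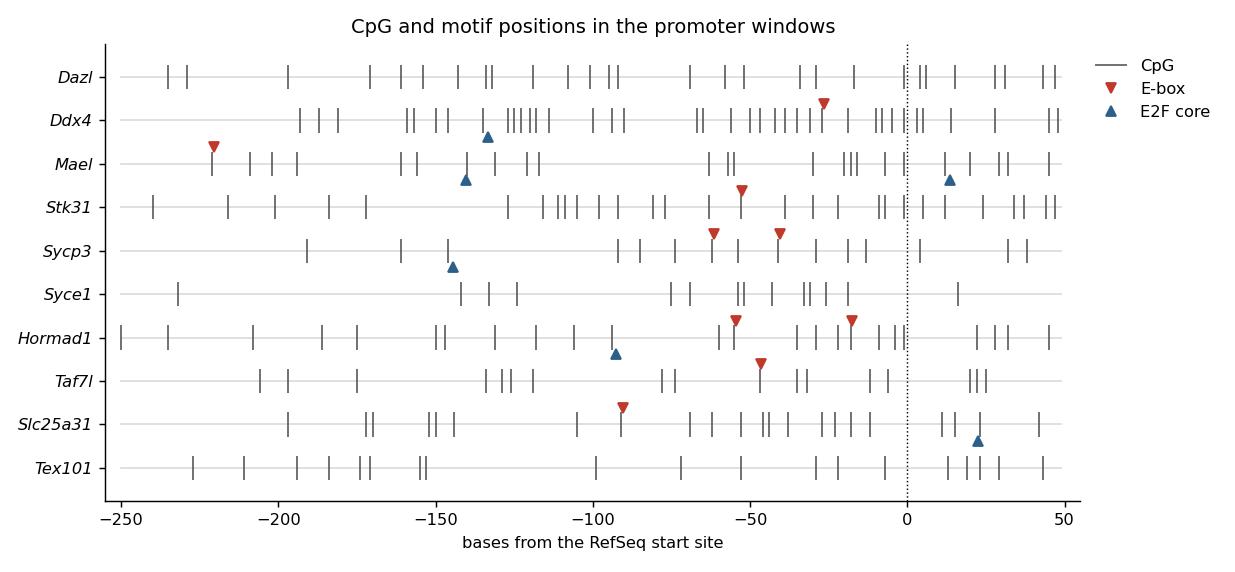
Positions of CpG (grey ticks), E-box CACGTG (red triangles above the line) and E2F core GCGGGA (blue triangles below the line) in the promoter window of each gene, in bases from the RefSeq start site (dotted line). E-boxes lie in 7 of the 10 windows, and the windows of Dazl, Syce1 and Tex101 have CpG ticks but no triangle.

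Reads on genes ran from 10940752 to 33276622 per library (median 23096248), and replicates of a group differed by more than sampling noise in all 18 pairs. Ezr, the gene the line was built with, was above WT in iEZR_CA libraries of all 3 stages (log2 fold change 1.07 in ESCs, 1.43 at T24 and 0.69 at T48), and its reads do not tell the transgene from the endogenous gene. Normalized counts are reads divided by a DESeq2 size factor for the depth of the library. Markers of late male germ cells (Prm1, Prm2, Tnp1, Tnp2, Acrv1, Spaca1, Odf1 and Akap4) were at or near 0, with 5 to 8 of the 8 at no more than 3 counts in every library of a group and a sum of 0.0727 to 0.739 CPM, that is, counts scaled to the same library total. The 6 pluripotency markers were present in every group, with sums of 4763 to 4865 CPM in WT ESCs and 1128 to 1162 CPM at WT T48. The members lie on 8 chromosomes, whose median log2 difference between the lines ran from -0.09 to 0.06. Chromosomes without a member were not all so level. Chromosome 14 had medians of -0.30 in ESCs, -0.35 at T24 and -0.24 at T48, and chromosome 8 had 0.19, 0.24 and 0.20. The lines thus differed in whole chromosomes at each stage, and the cause was not tested.

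Levels per length, as CPM divided by the exon length in kilobases (RPKM), placed Dazl first in WT ESCs at 35.5 ± 1.15 RPKM. Hormad1 followed at 14.2 ± 0.499, Syce1 at 10.8 ± 1.28 and Stk31 at 5.09 ± 0.323 RPKM, each without overlap with its neighbour. Ddx4, Mael, Taf7l and Sycp3 came next at 1.70 to 1.40 RPKM, and in this run each overlapped the next in order. Slc25a31 stood at 0.619 ± 0.0587 RPKM and Tex101 at 0.163 ± 0.0148 RPKM, which was 5 to 8 reads a library. No member had 3 or fewer counts throughout any group. At WT T48 the order had changed, with Mael first at 30.4 ± 1.50 RPKM and Dazl, at 6.72 ± 0.153 RPKM, below Hormad1, Taf7l, Syce1 and Ddx4 too. In iEZR_CA ESCs, Syce1 at 30.5 ± 0.954 RPKM overlapped Dazl at 31.6 ± 0.436 RPKM.

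The first comparison asks how these genes behave when normal cells leave the naive state. In WT cells the list rose more often than it fell, although Dazl fell more than 5-fold. At T24, 6 of the 10 genes were higher than in ESCs and 1 was lower, where 31.8% of all genes tested were called higher and 33.6% lower (edgeR quasi-likelihood test, Benjamini-Hochberg adjusted p under 0.05 over all genes). At T48, 7 were higher and 3 lower, where 37.1% of all genes were higher and 37.4% lower. The fall of Stk31, 1 of these 3, was near the threshold (edgeR adjusted p = 0.045), and its ESC and T48 libraries overlapped. The median log2 fold change of the members was 0.79 at T24 and 1.27 at T48, against -0.01 and 0.01 over all genes tested. Both comparisons use the same ESC libraries. In bulk RNA, a change in every cell and a change in the share of cells that express a gene cannot be told apart.

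Mael, a germ granule protein of the pathway by which piRNAs silence transposons (chromosome 1, 166201201 to 166238747, minus strand), rose most. It had 57.3, 58.9 and 61.3 normalized counts in the WT ESC libraries, 261, 254 and 265 at T24 and 1151, 1124 and 1045 at T48. The 3 stages did not overlap. Its log2 fold change was 2.12 ± 0.11 (SE) at T24 and 4.20 ± 0.086 at T48 (edgeR adjusted p = 2.1e-27 and 1.6e-50), and the ratio of the T48 to the ESC mean was 18.7. In iEZR_CA cells it started from the same level, with 65.3, 59.4 and 53.2 in ESCs, and reached 95.8, 84.3 and 108 at T24 and 256, 276 and 309 at T48. All iEZR_CA T48 values lay close to the WT T24 values and below every WT T48 value. iEZR_CA cells were 2.71-fold lower than WT at T24 and 3.95-fold lower at T48 (log2 fold change -1.45 ± 0.10 and -1.98 ± 0.065, edgeR adjusted p = 1.2e-20 and 9.5e-38), while in ESCs the difference was 0.00 ± 0.15.

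Dazl, an RNA-binding protein that controls translation in germ cells (chromosome 17, 50279395 to 50293636, minus strand), went the other way. It had 2861, 2882 and 2714 normalized counts in WT ESCs, 1969, 2001 and 2060 at T24 and 526, 541 and 551 at T48. It fell in WT by 0.50 at T24 and by 2.40 at T48 on the log2 scale (SE 0.037 and 0.044, edgeR adjusted p = 1.1e-19 and 3.5e-53), a 5.23-fold fall of the mean over 48 h. In iEZR_CA cells it had 2490, 2532 and 2534 in ESCs, 1287, 1426 and 1423 at T24 and 744, 816 and 757 at T48. The iEZR_CA libraries were thus all below WT in ESCs and at T24, and all above WT at T48. The log2 differences between the lines were -0.17 ± 0.036, -0.53 ± 0.040 and 0.53 ± 0.051 in this order (edgeR adjusted p = 5.2e-05, 3.8e-19 and 2.2e-14).

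Ddx4, the RNA helicase Vasa of germ granules (chromosome 13, 112598333 to 112652475, minus strand), ran from 89.5 to 123 normalized counts in WT ESCs, from 167 to 206 at T24 and from 439 to 486 at T48. Its log2 fold change over 48 h was 2.14 ± 0.095 in WT and 0.86 ± 0.088 in iEZR_CA cells (edgeR adjusted p = 8.3e-31 and 1.1e-13). In iEZR_CA ESCs it ran from 183 to 251, above every WT ESC library. The lines had crossed by T48, when iEZR_CA libraries held 371 to 386 and lay below WT, with log2 differences of 0.98 ± 0.11 in ESCs, 0.39 ± 0.096 at T24 and -0.30 ± 0.075 at T48 (edgeR adjusted p = 9.3e-12, 3.2e-04 and 4.6e-04). Stk31, a Tudor domain protein of the testis (chromosome 6, 49395604 to 49469501, plus strand), peaked at T24 in WT cells, with 321 to 364 in ESCs, 459 to 523 at T24 and 288 to 327 at T48. In iEZR_CA cells it held 506 to 570, 562 to 569 and 577 to 600. iEZR_CA cells had more at each stage, by 0.64 ± 0.066, 0.21 ± 0.061 and 0.94 ± 0.066 on the log2 scale (edgeR adjusted p = 2.8e-13, 0.0028 and 2.6e-20). The WT call at T48 was a fall by 0.16 (SE 0.072, edgeR adjusted p = 0.045), which turned to 0.11 when libraries were scaled to the added spike-in RNA. Leaving out WT ESC replicate 1 or 3, or WT T48 replicate 2 or 3, ended that call (edgeR adjusted p = 0.058 to 0.31). DESeq2 size factors, a filter of 10 counts or only the groups compared also ended it (edgeR adjusted p = 0.063 to 0.068). By DESeq2's Wald test it was not called (DESeq2 adjusted p = 0.17).

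**Figure D2:**
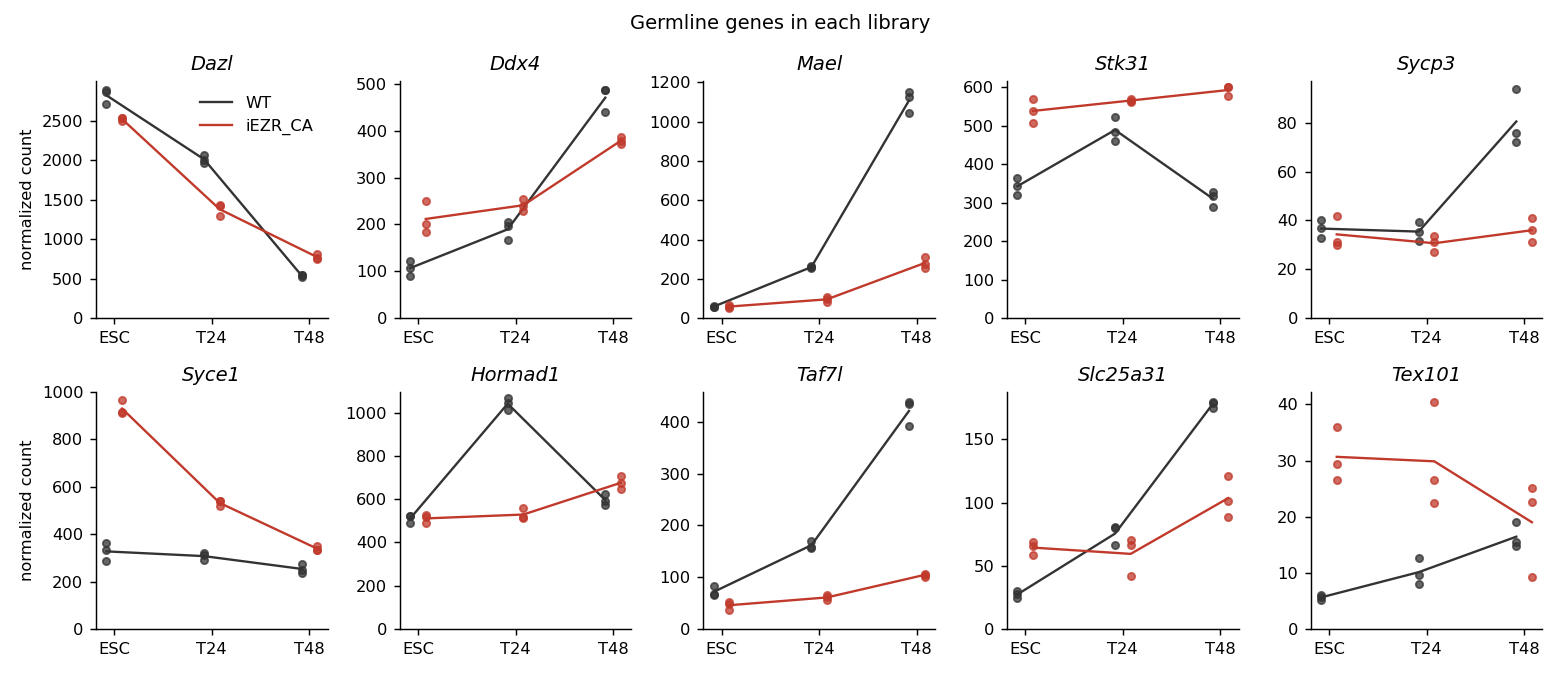
Normalized counts of each gene (vertical axes, linear from 0) in the 18 libraries, by stage, with WT in black and iEZR_CA in red; points are libraries and lines join the means of 3. Mael and Taf7l reach 1045 to 1151 and 391 to 438 at WT T48 and 256 to 309 and 101 to 107 at iEZR_CA T48, Dazl falls in both lines, and Hormad1 peaks at T24 in WT.

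The meiotic chromosome proteins did not share a course. Hormad1, a HORMA domain protein of the meiotic chromosome axis (chromosome 3, 95559677 to 95587671, plus strand), had 491, 520 and 520 normalized counts in WT ESCs, 1068, 1045 and 1012 at T24 and 624, 572 and 591 at T48. In iEZR_CA cells it had 519, 489 and 525, then 511, 517 and 559, then 676, 705 and 647. The WT peak at T24 stood above every other library of the study. The log2 change at T24 was 1.02 ± 0.052 in WT (edgeR adjusted p = 1.5e-27) and 0.05 ± 0.059 in iEZR_CA cells (edgeR adjusted p = 0.45), and at T24 iEZR_CA was 1.97-fold lower than WT (log2 fold change -0.98 ± 0.052, edgeR adjusted p = 3.5e-26).

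Syce1, a central element protein of the synaptonemal complex, which joins paired chromosomes (chromosome 7, 140777229 to 140787852, minus strand), had 287, 332 and 363 normalized counts in WT ESCs and 914, 912 and 965 in iEZR_CA ESCs. It was 2.84-fold higher in iEZR_CA ESCs (log2 fold change 1.48 ± 0.062, edgeR adjusted p = 1.7e-31). The gap narrowed at exit, with 289, 311 and 322 against 518, 540 and 538 at T24 and 237, 273 and 250 against 335, 332 and 349 at T48, and no stage overlapped between the lines. Over 48 h it fell by 0.42 in WT and by 1.46 in iEZR_CA on the log2 scale (SE 0.077 and 0.062, edgeR adjusted p = 2.0e-06 and 7.2e-32), and with spike-in scaling the WT fall was not called (edgeR adjusted p = 0.46). Sycp3, a protein of the lateral elements of that complex (chromosome 10, 88459569 to 88473236, plus strand), ran from 27.2 to 42.0 in all groups but WT T48, where it ran from 72.0 to 93.7. At T48 iEZR_CA was 2.24-fold lower (log2 fold change -1.08 ± 0.17, edgeR adjusted p = 9.8e-08). Of its 1264 exon bases, 660 are shared with Chpt1 on the opposite strand, and since the strand setting of the counting is not given in the sources used here, the Sycp3 values are uncertain. Chpt1, chosen for this overlap, had 173 ± 24.8 normalized counts at WT T48 and 256 ± 22.8 at iEZR_CA T48 (SD, n = 3).

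Taf7l, a germ cell relative of the TFIID subunit TAF7 (chromosome X, 134460118 to 134476490, minus strand), had 82.0, 67.3 and 65.6 normalized counts in WT ESCs, 156, 159 and 170 at T24 and 438, 434 and 391 at T48. In iEZR_CA cells it had 48.7, 36.8 and 51.8, then 55.3, 66.1 and 61.0, then 101, 105 and 107. The iEZR_CA libraries lay below WT at each stage, and the distance grew, from a log2 difference of -0.67 ± 0.16 in ESCs to -1.38 ± 0.12 at T24 and -2.01 ± 0.094 at T48 (edgeR adjusted p = 2.5e-04, 1.4e-15 and 4.8e-29). At T48 this was 4.04-fold. The rise over 48 h was 2.55 ± 0.10 in WT and 1.22 ± 0.15 in iEZR_CA on the log2 scale (edgeR adjusted p = 1.1e-33 and 4.7e-11).

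Slc25a31, the ADP/ATP carrier of male germ cell mitochondria (chromosome 3, 40708855 to 40726096, plus strand), ran from 24.7 to 29.8 normalized counts in WT ESCs, from 66.2 to 80.5 at T24 and from 175 to 180 at T48. It ran from 58.6 to 68.7, from 41.8 to 70.3 and from 88.7 to 121 in iEZR_CA cells. It was thus higher in iEZR_CA ESCs and lower at T48, without overlap (log2 fold change 1.20 ± 0.19 and -0.80 ± 0.12, edgeR adjusted p = 1.9e-07 and 2.6e-08). Tex101, a germ cell surface protein (chromosome 7, 24668007 to 24676675, minus strand), had the fewest reads. It ran from 5.11 to 6.12 in WT ESCs, from 8.08 to 12.6 at T24 and averaged 16.4 ± 2.35 at T48, and it ran in iEZR_CA cells from 26.6 to 36.0, from 22.5 to 40.5 and from 9.23 to 25.2. It was 5.46-fold higher in iEZR_CA ESCs (log2 fold change 2.44 ± 0.35, edgeR adjusted p = 1.4e-08), and at T48 the lines overlapped (0.20 ± 0.31, edgeR adjusted p = 0.61).

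The comparison of the lines asks how iEZR_CA cells given doxycycline differed from WT at each stage. Active ezrin, the drug and other differences between the lines cannot be told apart in it. In ESCs, 5 members were higher in iEZR_CA (Tex101, Syce1, Slc25a31, Ddx4 and Stk31) and 2 were lower (Taf7l and Dazl), where 26.4% of all genes were higher and 28.1% lower. At T24, 4 were higher (Tex101, Syce1, Ddx4 and Stk31) and 4 lower (Mael, Taf7l, Hormad1 and Dazl), against 30.8% and 30.1% of all genes. At T48, 4 were higher (Stk31, Dazl, Syce1 and Hormad1) and 5 lower (Taf7l, Mael, Sycp3, Slc25a31 and Ddx4), against 31.0% and 30.1%. With so many genes called, counts of 4 to 5 in 10 are near the background and say little of the list as such. With a change of more than 2-fold also required, 3 members were higher and 0 lower in ESCs, where 5.59% and 6.31% of all genes were. Taf7l came nearest to being lower, at -0.67 by edgeR and -0.66 by DESeq2. At T24 this gave 1 higher and 2 lower (7.88% and 7.00% of all genes), and at T48 0 higher and 3 lower (7.83% and 8.25%), with Stk31 the nearest to being higher, at 0.94 by edgeR and 0.93 by DESeq2. The members lower by more than 2-fold were Mael and Taf7l at T24 and Mael, Taf7l and Sycp3 at T48. The medians of the 10 log2 differences were 0.32, -0.28 and -0.06, against -0.01, 0.00 and 0.00 over all genes tested. Scaled to the spike-ins, the calls of Dazl in ESCs, Stk31 at T24 and Ddx4 and Hormad1 at T48 were lost (edgeR adjusted p = 0.096 to 0.56).

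**Figure D3:**
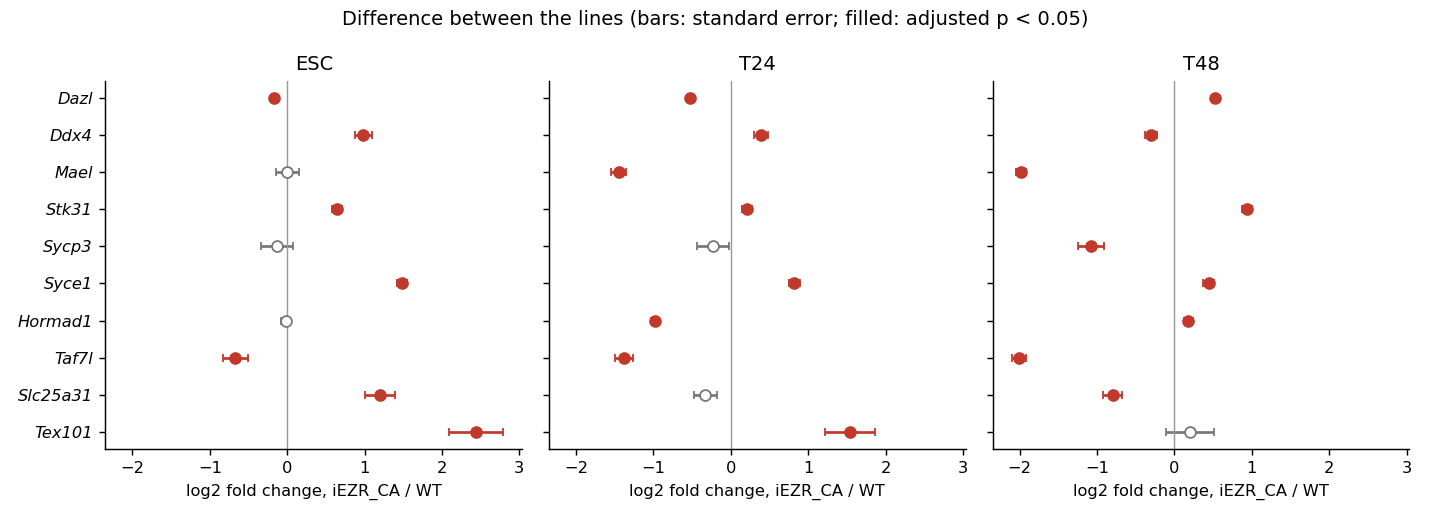
log2 fold change of iEZR_CA over WT for each gene (rows) in ESCs, at T24 and at T48; bars are standard errors, filled points have an edgeR adjusted p under 0.05 and open points do not. Tex101 and Syce1 lie to the right in ESCs at 2.44 and 1.48, and Mael and Taf7l lie to the left at T48 at -1.98 and -2.01.

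Exit was also followed in iEZR_CA cells. At T24, 3 were higher than in ESCs (Mael, Taf7l and Ddx4) and 2 lower (Dazl and Syce1), where 27.1% of all genes were higher and 28.9% lower, so these counts are near the background. The Ddx4 call was close to the threshold (log2 fold change 0.22 ± 0.095, edgeR adjusted p = 0.048) and was lost without iEZR_CA ESC replicate 1 or 2, T24 replicate 2 or 3 or any T48 replicate (0.13 to 0.23, edgeR adjusted p = 0.052 to 0.32). At T48, 6 were higher (Mael, Taf7l, Ddx4, Slc25a31, Hormad1 and Stk31) and 3 lower (Dazl, Syce1 and Tex101), against 35.2% and 35.0%. By DESeq2 the calls of Stk31 and Tex101 at T48 and of Ddx4 at T24 were lost (DESeq2 adjusted p = 0.12, 0.11 and 0.17). The log2 rises at T48 were 2.21 ± 0.11 for Mael, 1.22 ± 0.15 for Taf7l and 0.86 ± 0.088 for Ddx4, and the other 3 were 0.67 or less. Whether the course differed between the lines was tested as the interaction of line and time. At T24, 0 members were higher and 8 were lower, where 21.5% of all genes were higher and 16.9% lower. No member had a value above 0, so the count of higher members was 0 at an unadjusted p too, and it was 0 by DESeq2's Wald test. Scaled to the spike-ins, 4 members were lower instead of 8. At T48, 7 were lower and 3 higher, against 20.0% and 25.7%. The 3 higher (Dazl, Stk31 and Hormad1) became 1 with spike-in scaling and 1 without WT T48 replicate 3, and Hormad1 was not called by DESeq2 (DESeq2 adjusted p = 0.14). A lower interaction means that the gene rose less or fell more in iEZR_CA cells than in WT. It includes the difference that was already there in ESCs: for Syce1, Slc25a31, Ddx4, Stk31 and Tex101 the iEZR_CA level started higher.

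**Figure D4:**
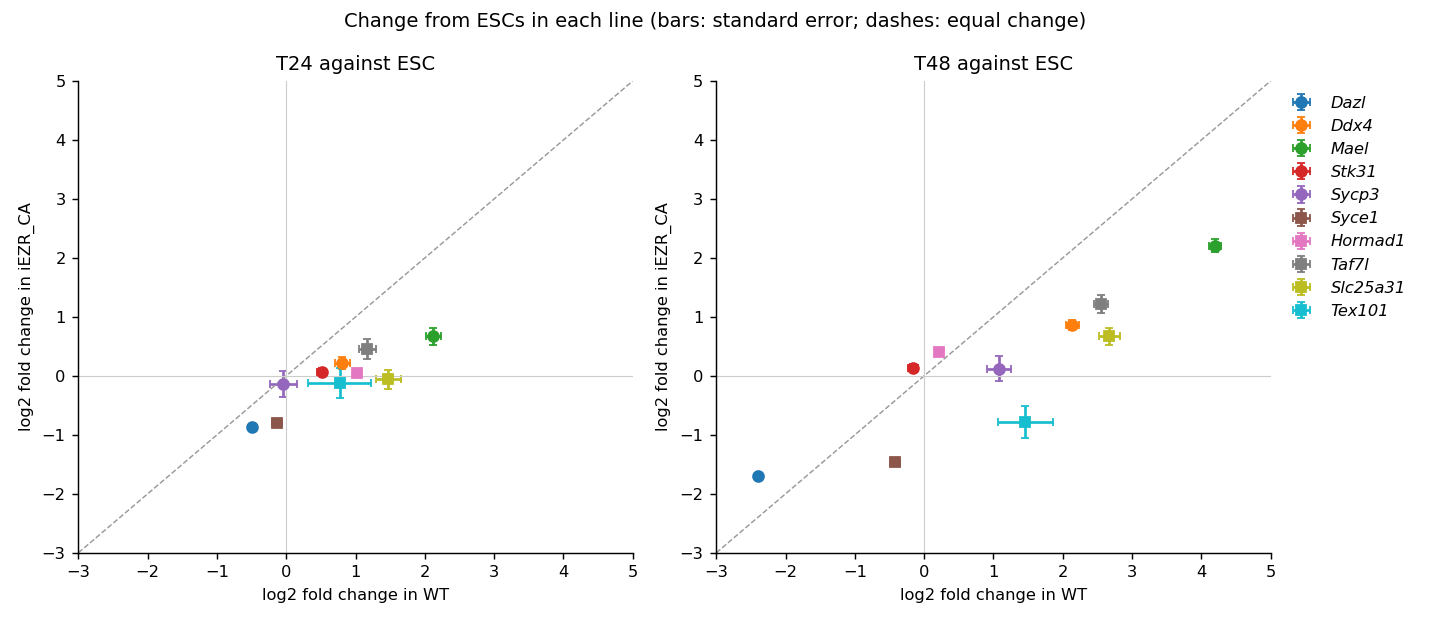
log2 fold change from ESCs in WT (horizontal axis) against that in iEZR_CA (vertical axis) for each gene, at T24 (left) and T48 (right); bars are standard errors and dashes mark an equal change. All 10 points lie below the dashes at T24, and at T48 Dazl, Hormad1 and Stk31 lie above them, with Mael at 4.20 in WT and 2.21 in iEZR_CA.

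The sum over the 10 genes hid these shifts. It was 207 ± 1.77, 219 ± 2.06 and 189 ± 6.02 CPM in WT ESC, T24 and T48 libraries (SD, n = 3) and 237 ± 6.01, 168 ± 6.30 and 158 ± 3.33 CPM in iEZR_CA. Dazl made up 65.5% of it in WT ESCs and 13.6% at WT T48, and 51.0% and 23.4% in iEZR_CA. Without Dazl the sum went in WT from 71.6 ± 2.99 to 123 ± 1.83 and 163 ± 6.60 CPM, each stage above the last in every library. In iEZR_CA it was 116 ± 5.17, 102 ± 2.59 and 121 ± 2.10 CPM. An exact permutation test of 3 libraries against 3 cannot go below a two-sided p of 0.1, so no test is given for these sums.

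**Figure D5:**
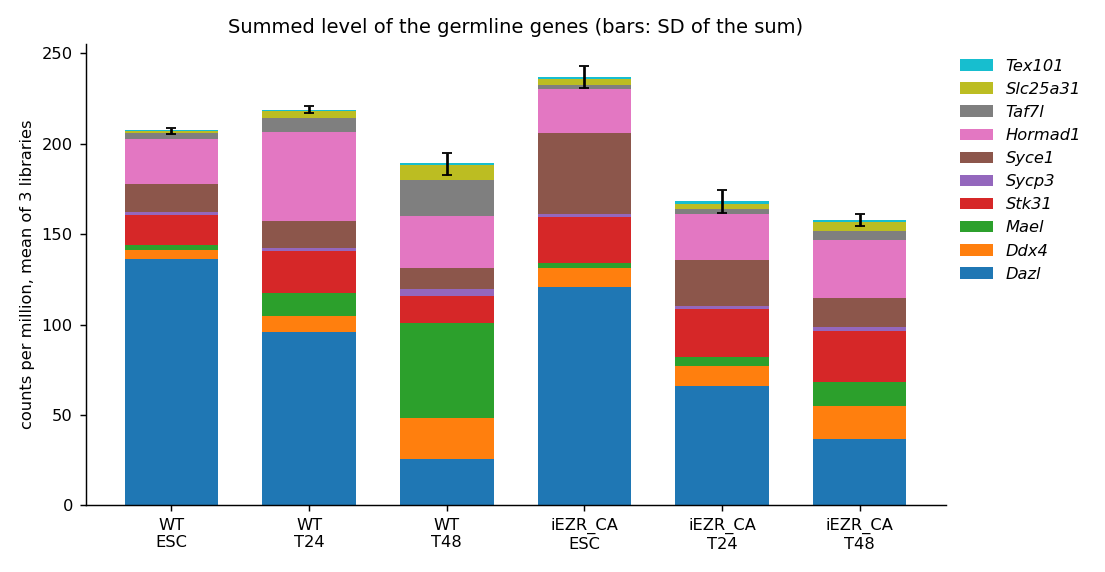
Summed CPM of the 10 genes (vertical axis) in each group, stacked by gene as means of 3 libraries; black bars are the SD of the sum. The Dazl block shrinks from 65.5% to 13.6% of the sum in WT, and Mael is the largest block of the WT T48 bar, at 52.7 CPM.

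Other germline genes, a list of 30, all of which were tested, were set beside the members. In WT, 19 rose and 7 fell at T24 and 16 rose and 9 fell at T48, with median log2 changes of 0.52 and 0.21. Of all genes tested, 31.8% rose and 33.6% fell at T24, and 37.1% and 37.4% at T48. Between the lines, 13 were higher and 7 lower in iEZR_CA ESCs, 7 and 15 at T24, and 14 and 10 at T48. The shares of all genes tested were 26.4% and 28.1% in ESCs, 30.8% and 30.1% at T24, and 31.0% and 30.1% at T48. In ESCs the largest differences were in Brdt, a testis bromodomain protein, at 28.1 ± 8.41 normalized counts in WT and 189 ± 32.7 in iEZR_CA (log2 fold change 2.79 ± 0.16, edgeR adjusted p = 8.9e-25), and in Stra8, a gatekeeper of meiosis, at 1329 ± 150 and 220 ± 31.7 (-2.62 ± 0.14, edgeR adjusted p = 1.6e-09). At T24, Brdt was again higher in iEZR_CA, at 146 ± 4.69 against 26.1 ± 2.63 in WT, and Dpep3 was higher at 35.6 ± 12.5 against 16.7 ± 5.01. Tex14, a protein of the bridges between germ cells, was lower in iEZR_CA at T24, at 400 ± 20.1 against 1436 ± 89.0 in WT. At T48, Tdrd1, a Tudor protein of the piRNA pathway, had 254 ± 13.2 in WT and 51.9 ± 10.2 in iEZR_CA, and Sycp2, the partner of Sycp3 in the lateral element, 94.3 ± 2.12 and 21.5 ± 5.55. Asz1, also of the piRNA pathway, was higher in iEZR_CA by 2.28 ± 0.25 in ESCs and 1.96 ± 0.27 at T48 on the log2 scale. The list thus held genes that differed in both directions, as the members and all genes tested did.

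The list of 11 methylation writers, erasers and partner genes moved in both directions at exit. It held Dnmt1, Uhrf1, Dnmt3a, Dnmt3b, Dnmt3l, Tet1, Tet2, Tet3, Tdg, Zfp57 and Dppa3, so its counts are not counts of enzymes. Dppa3 is also among the 8 genes of primordial germ cell specification. In WT, 9 rose and 2 fell at T24, and 5 rose and 5 fell at T48, with median log2 changes of 0.38 and -0.12. Of all genes tested, 31.8% rose and 33.6% fell at T24, and 37.1% and 37.4% at T48. Dnmt3a had 1230 ± 71.6 normalized counts in WT ESCs, 21314 ± 306 at T24 and 19268 ± 862 at T48, and 1880 ± 64.1, 5738 ± 186 and 13269 ± 149 in iEZR_CA. Dnmt3b had 3135 ± 46.6, 30573 ± 835 and 59626 ± 2644 in WT and 3655 ± 115, 12245 ± 370 and 26682 ± 885 in iEZR_CA. At T24 iEZR_CA was lower by 1.89 ± 0.030 in Dnmt3a and 1.32 ± 0.029 in Dnmt3b on the log2 scale (edgeR adjusted p = 2.3e-48 and 1.6e-30). Dnmt3l, their cofactor without catalytic activity, was higher in iEZR_CA ESCs by 1.77 ± 0.055 and at T48 by 1.50 ± 0.040, and lower at T24, where its log2 difference was -0.51 ± 0.038 (edgeR adjusted p = 1.1e-10). Between the lines, 4 of the 11 were higher and 2 lower in iEZR_CA ESCs, 1 and 9 at T24, and 6 and 3 at T48. Of the 14 repressors of germline genes, 3 were higher and 7 lower in ESCs, 3 and 10 at T24, and 4 and 5 at T48. None of those named differed by more than 0.55 on the log2 scale. The shares of all genes tested were 26.4% and 28.1% in ESCs, 30.8% and 30.1% at T24, and 31.0% and 30.1% at T48. Mga, the scaffold of PRC1.6, had 10023 ± 851 in WT and 6834 ± 508 in iEZR_CA at T24. It was not called in ESCs (log2 fold change -0.18 ± 0.078, edgeR adjusted p = 0.064) or at T48 (0.14 ± 0.075, edgeR adjusted p = 0.12). Yaf2 was higher in iEZR_CA in ESCs and at T24 (0.50 and 0.46), and L3mbtl2 was lower in ESCs and higher at T48 (-0.47 and 0.44). Of the 8 genes of primordial germ cell specification, 7 fell over 48 h in both lines, with median log2 changes of -4.05 in WT and -2.66 in iEZR_CA. Of all genes tested, 37.4% fell in WT and 35.0% in iEZR_CA. Between the lines, 2 of the 8 were higher and 5 lower in iEZR_CA ESCs, 5 and 3 at T24, and 6 and 1 at T48. Whether the fall of this list has a link to the members that rose was not tested.

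Markers of other cells were read beside these results. The 6 fibroblast markers summed to 16.9 to 18.8 CPM at WT T48, where Mael, Taf7l, Ddx4, Slc25a31 and Sycp3 were highest, and to 1.68 to 3.64 CPM in the other 5 groups. Not all 6 were high at WT T48. Mean normalized counts there were 200 for Col1a2, 128 for Thy1 and 50.6 for Col1a1, but 2.71 for Col3a1, 0.258 for Lum and 0 for Postn. Of the 6, 2 were at no more than 3 counts in every WT T48 library, and 3 were tested (Col1a2, Thy1 and Col1a1), of which all 3 were lower at iEZR_CA T48. Their part in the results was not tested. Primitive endoderm markers summed to 5.52 to 6.79 CPM at WT T48 and 3.33 to 4.85 CPM at iEZR_CA T48, and markers of 2-cell-like cells to 1.40 to 2.23 and 0.992 to 1.04 CPM. Of the 6 pluripotency markers, 0 were higher and 5 lower in iEZR_CA ESCs. Sall4, Sox2 and Pou5f1 differed most there, at -0.56, -0.32 and -0.32 on the log2 scale. At T24, 4 of the 6 were higher and 1 lower in iEZR_CA, and at T48 4 were higher and 2 lower (Pou5f1 and Sall4). The shares over all genes at each stage are given above. Nanog, Esrrb and Zfp42 were higher at both stages, and at T48 Esrrb had 2596 ± 91.7 normalized counts in iEZR_CA and 379 ± 30.2 in WT.

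The genes whose log2 CPM followed that of Dazl most closely over the 18 libraries, of 12800 compared, were Pias2 (Pearson r = 0.986), Cggbp1 (0.985), Ubxn11 (0.985), Bsdc1 (0.983) and Zwint (0.982). All 5 had a lower mean at each later stage in both lines. Ubxn11 went from 258 to 140 and 36.5 mean normalized counts in WT and from 181 to 96.1 and 56.4 in iEZR_CA. The libraries form 6 groups, so r describes mostly the order of the 6 group means.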

How the data were processed

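RNA-seq libraries of WT and iEZR_CA cells were grouped by the cell line and exit time in the labels (3 per group). Where the replicates came from is not stated library by library, so p-values measure the spread between these libraries. The authors trimmed reads (Trim Galore 0.6.5), mapped them to GRCm38 (mm10) by GSNAP, counted Ensembl genes by HTSeq and deposited raw counts per gene without normalization. Reads outside genes (21.3% to 24.3% of a library) and spike-ins (0.575% to 0.884%) were left out of library sizes. The test was edgeR 4.0.16 under R 4.3.3 (filterByExpr, TMM, robust quasi-likelihood fit of all 18 libraries with 1 term per group, Benjamini-Hochberg over 18469 genes, threshold 0.05). Normalized counts used DESeq2 1.42.0 size factors, and RPKM used exon lengths of GENCODE M21, in which 53706 of the 53801 gene identifiers were found. The fit was tested on simulated data. Standard errors were derived from F statistics and fold changes. The common coefficient of variation was 2.98%, so small changes can be called. Promoter windows, 1 per gene (the lowest coordinate where RefSeq gives 2, as for Hormad1 and Stk31), came from RefSeq on GRCm38.p6.

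All 10 members are named. From each other list, at most 3 genes per comparison of the lines are eligible to be named (largest log2 fold change, adjusted p under 0.05, mean of 10 or more normalized counts), and for Dazl the 5 most correlated genes with a mean of 50 or more. The members and lists were chosen with earlier results of these data known. Alternatives were DESeq2 size factors, DESeq2's Wald test, no filter, a filter of 10 counts, spike-in scaling, a prior count of 2, only the groups compared, and each library left out.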

Additional observations from a re-analysis of the deposited data

Results flagged for a closer look

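The change from ESCs differed between the lines, by the interaction of line and time in edgeR, for 8 of the 10 genes at T24 and for all 10 at T48. Over all genes tested, 21.5% were higher and 16.9% lower at T24, and 25.7% and 20.0% at T48. By DESeq2, Hormad1 was not called at T48 (DESeq2 adjusted p = 0.14). Values are the log2 change in iEZR_CA minus that in WT, and the T24 and T48 values share the ESC libraries. At T24, among genes that rose in WT, Mael was at -1.45, Slc25a31 at -1.52, Hormad1 at -0.97, Taf7l at -0.71, Ddx4 at -0.59 and Stk31 at -0.44. Dazl, at -0.36, fell in both lines and fell more in iEZR_CA, and Syce1, at -0.67, passed the threshold for a fall only in iEZR_CA (edgeR adjusted p for the 8 from 1.1e-16 to 0.0049). At T48, Tex101 was at -2.24, Slc25a31 at -2.00, Mael at -1.99, Taf7l at -1.33, Ddx4 at -1.28, Syce1 at -1.04 and Sycp3 at -0.95. Dazl at 0.70 fell less in iEZR_CA, Stk31 was at 0.30 and Hormad1 at 0.20 (edgeR adjusted p for the 10 from 6.9e-16 to 0.037). For Tex101, which rose in WT and fell in iEZR_CA, the iEZR_CA T48 libraries spread from 9.23 to 25.2 normalized counts, and leaving out iEZR_CA T48 replicate 2 moved its change in iEZR_CA from -0.78 to -0.40.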

How the results depend on the processing

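No paired analysis was possible because the labels give no replicate numbers. Of 629 values of single genes under the 7 alternatives other than leaving out a library, 596 kept their direction and side of the threshold, 25 lost the call and 8 changed sign. The prior count of 2 changes the fold changes only and keeps the p-values, so its 90 values could not lose a call. Scaling to the spike-ins raised the median of all genes by 0.13 and 0.27 in WT at T24 and T48 and by 0.14 and 0.26 in iEZR_CA. The share of higher among all calls went from 48.6% to 61.6%, from 49.8% to 66.3%, from 48.4% to 68.9% and from 50.1% to 69.4% in the same order, from 50.6% to 61.1% between the lines at T24 and from 56.0% to 68.5% for the interaction at T24. Under it the members called lower numbered 1 in the comparison of ESCs, 1 at WT T48 and 4 for the T24 interaction, and those called higher for the T48 interaction numbered 1. Counts of calls over all genes also fell, for the T24 interaction from 3966 higher and 3115 lower to 1656 and 760. The signs that turned under it were those of Hormad1 between ESCs (0.05), Sycp3 (0.10) and Syce1 (0.03) at WT T24, Stk31 at WT T48 (0.11), and Sycp3 (0.01), Tex101 (0.06) and Slc25a31 (0.08) at iEZR_CA T24, of which only Stk31 was called by edgeR with its own scaling. Without a filter Mael between ESCs was at -0.01. The cause was not tested.

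Leaving out a library kept 1577 of 1620 values, ended 28 calls, added 3 and turned 12 signs, none of them of a called value: Mael (-0.06 to 0.06) and Hormad1 (-0.04 to 0.02) between ESCs, Tex101 between the lines at T48 (-0.02 to 0.57), Sycp3 at WT T24 (-0.13 to 0.03), Tex101 (-0.34 to 0.04) and Slc25a31 (-0.17 to 0.09) at iEZR_CA T24, and the Sycp3 interaction at T24 (-0.18 to 0.03). Members lower at WT T24 numbered 1 to 2 (2 without WT ESC replicate 1), higher at iEZR_CA T24 1 to 3 (1 without iEZR_CA ESC or T24 replicate 2), and higher for the T48 interaction 1 to 3 (1 without WT T48 replicate 3). The Taf7l call at iEZR_CA T24 ended without iEZR_CA ESC replicate 2 (log2 fold change 0.30) or T24 replicate 2 (0.39), and the Tex101 call at iEZR_CA T48 without ESC replicate 2 (-0.62) or T48 replicate 2 (-0.40). The Stk31 rise at iEZR_CA T48 (0.14) ended without iEZR_CA ESC replicate 1 or 2, T24 replicate 2 or T48 replicate 2 or 3 (0.09 to 0.14), the Hormad1 interaction at T48 without replicate 2 or 3 of WT ESC or WT T48, iEZR_CA ESC replicate 2 or iEZR_CA T48 replicate 1 or 2 (0.16 to 0.19), and the Stk31 interaction at T48 without WT T48 replicate 3 (0.23). Leaving out WT T24 or iEZR_CA T24 replicate 3 added a call for Slc25a31 between the lines at T24 (-0.38 and -0.44), against -0.33 with all libraries. The 1620 values include those of comparisons that do not use the library left out. It enters these only through the filter, the scaling and the shared estimate of the spread. Restricted to the groups compared, 1 value could not be given. Tex101, at 5 to 8 reads in WT ESCs, is the member most limited by depth.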
